A study of Mus musculus with 20 samples.

Results

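The N-myc downstream regulated genes Ndrg1, Ndrg2, Ndrg3 and Ndrg4 were followed through striatal RNA sequencing of 20 male mice. They were taken by symbol from a table of 37051 loci, of which 26475 carry a symbol, and each of the 4 members is 1 locus of the table. The family was chosen by the Ndrg4 values of these libraries, which are listed at 0 throughout 1 mouse line, so that zero is a description and is not tested. Ndrg1, Ndrg2 and Ndrg3 were taken by family name, and Gins3 and Setd6 because they flank Ndrg4.

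The mice came from a control line and from a line with an overactive phenotype, and the labels give Collaborative Cross, a mouse population bred from several inbred founder strains, as the line of both. Mice of each line received saline or d-amphetamine, which releases dopamine in the striatum, at 25 mg/kg. The whole striatum was taken 2 hours later at about 6 months of age, with 5 mice, each sequenced as a library of its own, in every one of the 4 groups. No transgene or deletion is given for any group, and mice of 1 line share their ancestry, so a difference between the lines cannot be told apart from other differences of their genetic backgrounds. Library totals were 31393788 to 53773028 counts. All 10 listed markers of striatal projection neurons were present, with a summed level of 4592 to 7573 CPM. Levels here are CPM, a locus's counts relative to its library's total, scaled between libraries by the trimmed mean of M-values (TMM). In 4 libraries of the overactive line (saline 1 and 4, amphetamine 2 and 3) the mean log2(CPM + 1) of 8 thalamic neuron markers was 4.64 to 5.13, against 3.41 to 4.25 in the control line, so results are also given without these 4.

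NDRG proteins share an alpha/beta-hydrolase fold without a known enzymatic activity, and the family is named for the repression of its founding member by the transcription factor N-Myc. In the nervous system Ndrg1 is best known from myelinating cells, where its loss causes a demyelinating neuropathy in humans and mice. Ndrg2 is an astrocyte gene in the adult brain, and Ndrg4 is expressed in neurons and in the heart. The proteins are regulated by kinases such as SGK1 and GSK3 and, for NDRG1 and NDRG3, by oxygen and the prolyl hydroxylase pathway.

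The 4 genes lie on 4 chromosomes, so the Ndrg4 locus is separate from those of its relatives. On GRCm38, with positions counted from 1, the table places Ndrg1 on chromosome 15 from 66929318 to 67013042, Ndrg2 on chromosome 14 from 51905266 to 51914627 and Ndrg3 on chromosome 2 from 156927342 to 156992111. The span of Ndrg1 is shared with Gm2895 and is longer than the gene, which GENCODE M21 ends at 66969640. Ndrg4 lies on the plus strand of chromosome 8 from 95678010 to 95715119, and GENCODE M21 gives the gene from 95676980 to 95715119 with 11 transcripts. The table's locus therefore holds the annotated gene except its first 1030 bases. RefSeq (GRCm38.p6) lists 4 Ndrg4 start sites, at -1036, -247, 262 and 25046 bases relative to the start of the table's locus, so that 2 lie before it and 2 inside it. The pair of promoters nearest to the locus start, each 250 bases before to 50 after the start site and both on the plus strand, is printed here because it shows what the locus boundary divides. The capitals mark CACGTG, the palindromic E-box that Myc with Max, among other factors, can bind. The first covers chr8:95677513-95677812 and the second chr8:95678022-95678321.
Ndrg4 promoter before the locus start: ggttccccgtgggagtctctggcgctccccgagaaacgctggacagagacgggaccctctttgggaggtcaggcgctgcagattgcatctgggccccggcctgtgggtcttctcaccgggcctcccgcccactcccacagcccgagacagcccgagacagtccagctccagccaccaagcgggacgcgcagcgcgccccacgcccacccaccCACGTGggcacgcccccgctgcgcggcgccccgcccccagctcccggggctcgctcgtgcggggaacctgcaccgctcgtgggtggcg
Ndrg4 promoter inside the locus: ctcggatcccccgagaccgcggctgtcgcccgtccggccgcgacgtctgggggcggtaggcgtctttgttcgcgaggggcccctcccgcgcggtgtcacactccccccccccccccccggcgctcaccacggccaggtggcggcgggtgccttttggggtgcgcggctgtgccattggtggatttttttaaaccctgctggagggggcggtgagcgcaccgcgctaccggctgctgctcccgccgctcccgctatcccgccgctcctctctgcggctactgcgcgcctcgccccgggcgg

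The E-box was found in 1 of the 4 Ndrg4 promoters and in 0 of the 3 promoters of Ndrg2 and 0 of the 2 of Ndrg3. The promoter set held no entry for Ndrg1, so Ndrg1 was not searched. Searched as CACGTG, which reads the same on both strands, it occurred in 2349 of 32851 promoters of the same length (7.15%). The match describes these letters and is no measure of binding. Both printed promoters are rich in CG dinucleotides, with 31 and 40 in 300 bases and a GC content of 73.7% and 74.3%.

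How far reads of the relatives can be confused was read from their transcripts. The coding sequences of the 4 genes, at 1113 to 1212 bases without the stop codon, were 65.1% to 69.1% identical in pairs. The longest run shared by any pair was 32 bases between Ndrg2 (from coding base 919) and Ndrg4 (from coding base 991), and the other pairs shared runs of 17 to 21 bases. It is printed as the longest stretch in which a short read could belong to either gene, by these coding sequences.
Shared by Ndrg2 and Ndrg4: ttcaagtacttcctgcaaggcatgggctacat

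Of 5003 different stretches of 31 bases in Ndrg4 transcripts, 3 (0.0600%) occurred in another gene, and that gene was Ndrg2. For Ndrg2 the share was 0.232%, for Ndrg3 3.80% and for Ndrg1 7.32%, and the stretches of Ndrg1 and Ndrg3 were shared with genes outside the family.

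Ndrg4 had the highest mean CPM of the loci with a symbol in the control line, and it was listed at 0 in all 10 libraries of the overactive line. Control saline libraries 1 to 5 held 86485, 85677, 102128, 89976 and 89347 Ndrg4 counts. Control amphetamine libraries 1 to 5 held 83865, 74599, 74209, 92069 and 97724 counts. The 5 overactive saline and 5 overactive amphetamine libraries each held 0 counts, so the lines do not overlap and no library is intermediate. The totals of the overactive libraries, 31393788 to 53773028 counts, span those of the control libraries, 32633562 to 46493247.

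Within the control line the level of Ndrg4 varied little. It was 2291, 2412, 2180, 2009.6 and 2041 CPM in saline libraries 1 to 5, and 2095, 2384, 2153, 2314 and 2346 CPM in amphetamine libraries 1 to 5. The means were 2187 ± 169 and 2258 ± 127 CPM (SD, n = 5 each), the ranges overlapped, and the mean log2 level differed by 0.05. Ndrg4 took 0.200% to 0.237% of a control library's counts and 61.4% to 66.5% of the counts of the 4 family members.

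By mean level in the control line Ndrg4, at 2222 ± 146 CPM (SD, n = 10), ranked first of the 26475 loci with a symbol, and in single control libraries it ranked 1 to 4. The ranks hold for this table, which lists some abundant genes at 0. The next loci were Cpe, which encodes a neuropeptide-processing carboxypeptidase, at 2108 ± 145 CPM, and the non-coding RNA Snhg11 at 2102 ± 258 CPM. Ppp3ca, the calcineurin catalytic subunit, followed at 2079 ± 175 CPM and the chaperone Hspa8 at 2037 ± 268 CPM. These neighbours in rank differ from Ndrg4 by less than their own SDs. In the overactive line they stood at 2147 ± 125, 1934 ± 189, 1808 ± 210 and 2153 ± 226 CPM, all far from 0.

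**Figure D1:**
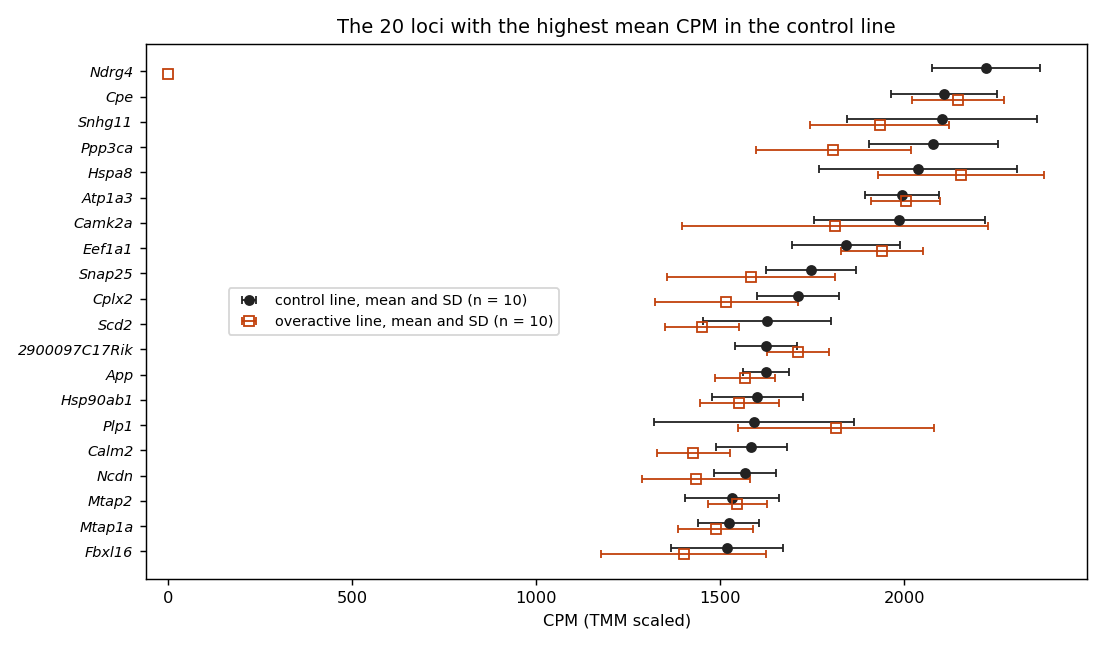
The 20 loci with the highest mean level in the control line are listed down the axis, with CPM along it; filled circles are the control line and open squares the overactive line (mean and SD, n = 10 each). Ndrg4 stands first at 2222 CPM in the control line and at 0 in the overactive line, while the other 19 keep levels far above 0 in the overactive line.

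Zeros as sharp as this one were rare but not unique to Ndrg4. Of the 26475 loci with a symbol, 2 were at 0 in every overactive library and at 100 counts or more in every control library, namely Ndrg4 and Cwc22, a splicing factor gene with 1152 to 130451 counts in the control libraries. No locus with a symbol showed the opposite pattern. The table also lists abundant genes at 0 in all 20 libraries: Mbp, the myelin basic protein gene, and Slc1a2, the main astrocyte glutamate transporter, both of the marker lists, and the non-coding RNA Meg3, chosen after its values were seen. In all, 4155 loci with a symbol were at 0 in every library, so an exact 0 in this table is reported as listed at 0, and no fold change is given for Ndrg4. Whether the Ndrg4 zeros stand for an absent transcript or for an estimate that failed when the counts were made was not tested, since it needs the reads.

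All 4 loci that the table lists with the span of Ndrg4 were at 0 in the overactive line. Counts are given per locus and these loci share the same coordinates, so how far the zero extends along the span cannot be read from them. The 3 other loci with the same span, all without a symbol, held 15 to 44, 6 to 18 and 4 to 11 counts in the control libraries and were also at 0 in every overactive library. Of 29233 different spans in the table, 2 were at 0 throughout the overactive line with at least 100 counts in every control library, those of Ndrg4 (4 loci) and Cwc22 (7 loci). The nearest locus upstream, without a symbol and starting 6.41 kb before Ndrg4, held 66 to 242 counts in control and 94 to 350 counts in overactive libraries.

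Gins3 and Setd6, on either side of Ndrg4, were present at similar levels in both lines. Gins3, a subunit of the GINS complex of DNA replication, runs from 95633559 to 95645059 and stood at 3.21 ± 0.28 CPM in the control line and 3.52 ± 0.34 CPM in the overactive line (SD, n = 10 each). Its difference over both treatments was log2 0.13 (SE 0.08, edgeR adjusted p = 0.278). Setd6, a lysine methyltransferase gene that starts 608 bases after the end of the Ndrg4 locus at 95715727, stood at 15.5 ± 1.28 and 16.0 ± 1.47 CPM. Its difference was log2 0.05 (SE 0.06, edgeR adjusted p = 0.609).

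The wider neighbourhood did not share the zero either. Within 500 kb, 31 loci start, 27 of them outside the Ndrg4 span. Of these 27, 26 had counts in at least 1 library of each line and 0 were at 0 in the overactive line alone. Several of the 26 lay near the floor, such as Tepp (0 to 2 counts in either line) and Prss54 (0 to 3). For such loci a count or a 0 says little. Outside the Ndrg4 span 14 were tested, and 0 passed at an edgeR adjusted p under 0.05 in the line comparison over both treatments, where 1208 of 17206 genes (7.02%) passed. Their log2 differences ran from -0.17 to 0.78 with a median of 0.03. The largest was that of Cngb1, a cyclic nucleotide-gated channel subunit (edgeR adjusted p = 0.0961), and the smallest adjusted p was 0.0809 for Ccdc113, a gene of cilia, with log2 0.43 (SE 0.15).

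**Figure D2:**
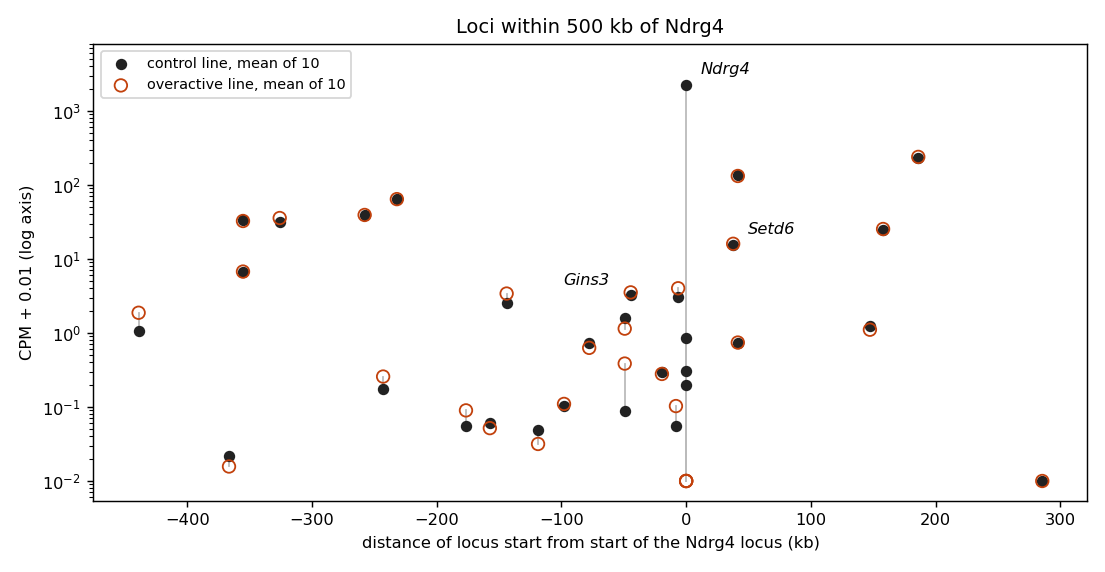
Each locus within 500 kb of Ndrg4 is placed by the distance of its start from that of Ndrg4 in kb, with the mean CPM of each line plus 0.01 on a log axis; filled circles are the control line and open circles the overactive line (n = 10 each). Filled and open circles stand close together for most loci, and at distance 0 Ndrg4 and the 3 loci of the same span drop to the lowest value, which stands for 0, in the overactive line.

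Per kilobase of annotated exon the order of the family in the control line was Ndrg4, Ndrg2, Ndrg3, Ndrg1, without overlap between any pair of neighbours. Ndrg4 stood at 454 ± 29.8 CPM per kb over the 10 control libraries (SD, range 411 to 493). Over all 20 libraries Ndrg2 stood at 228 ± 16.5 (range 198 to 257), Ndrg3 at 41.8 ± 4.13 (35.3 to 50.2) and Ndrg1 at 18.4 ± 2.60 CPM per kb (14.4 to 23.7). The summed level of Ndrg1, Ndrg2 and Ndrg3 was 1232 ± 43.2 CPM in the control line (1161 to 1304) and 1261 ± 60.7 CPM in the overactive line (1174 to 1367), and these ranges overlap.

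**Figure D3:**
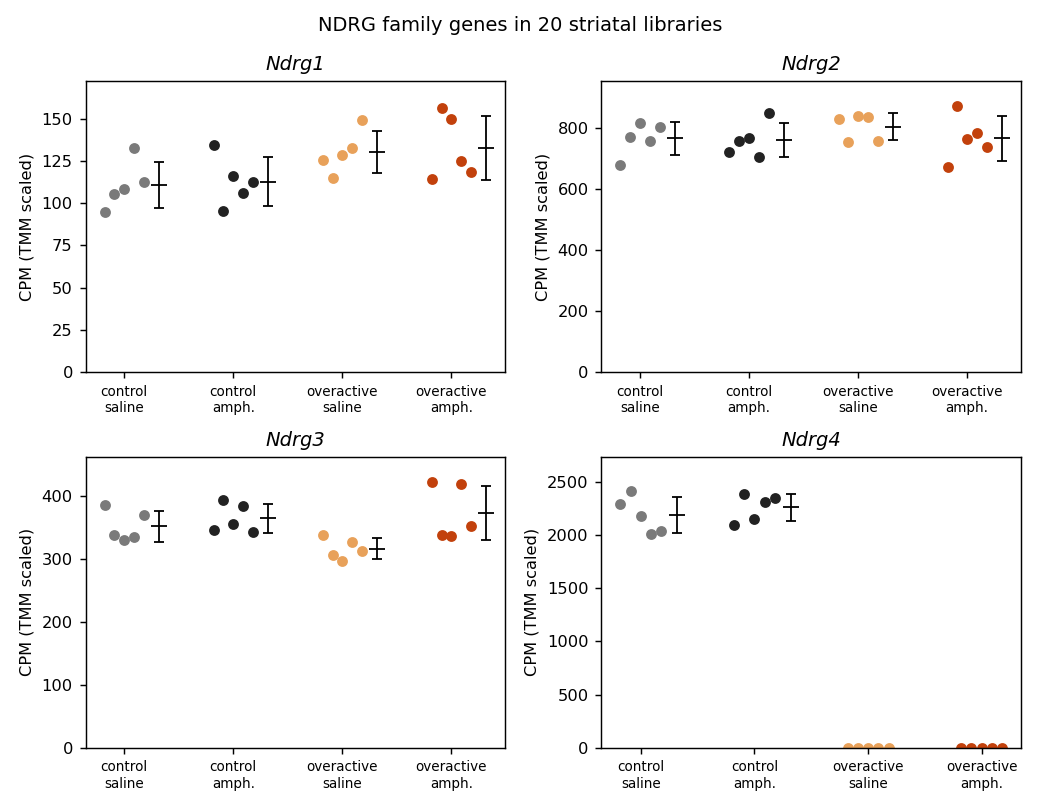
The 4 panels show the CPM of each family member in every library, by line and injection, with the group mean and SD beside the points (n = 5). Ndrg1 sits between 94.98 and 156 CPM, Ndrg2 between 671 and 873 and Ndrg3 between 296 and 421 in all 20 libraries, while Ndrg4 lies between 2009.6 and 2412 CPM in 10 and at 0 in the other 10.

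Of Ndrg1, Ndrg2 and Ndrg3, 0 passed the test in any of the 7 comparisons of line and injection. Over both treatments 638 of 17206 genes (3.71%) were higher and 570 (3.31%) lower in the overactive line. Between the lines in saline 191 genes (1.11%) passed, 0.639% higher and 0.471% lower. Under amphetamine 78 (0.453%) passed, 0.221% higher and 0.232% lower. For amphetamine against saline 0 genes of the whole table (0%) passed in the control line, in the overactive line, over both lines or for the difference between the lines, all with edgeR's quasi-likelihood test. At an unadjusted p under 0.05 there were 957, 1382, 1895 and 510 genes, and DESeq2 called 0, 40, 161 and 0. A missed threshold in these comparisons leaves the intervals below as the measure of what could have gone unseen.

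Ndrg1, the family member of myelinating cells, was the closest to a line difference. Its level in saline libraries 1 to 5 was 94.98, 105, 108, 132 and 113 CPM in the control line and 125, 115, 128, 132 and 149 CPM in the overactive line. Under amphetamine it was 134, 95.1, 116, 106 and 112 CPM in the control line and 114, 156, 149.5, 125 and 118 CPM in the overactive line. The line means were 112 ± 13.3 and 131 ± 15.2 CPM (SD, n = 10 each), with ranges of 94.98 to 134 and 114 to 156 CPM that overlap.

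Over both treatments the overactive line was higher by log2 0.23 (SE 0.07, 95% interval 0.08 to 0.39), a fold change of 1.18, with an edgeR adjusted p of 0.0604, so it did not pass. The difference was log2 0.23 in saline (SE 0.10, adjusted p = 0.259) and log2 0.24 under amphetamine (SE 0.10, adjusted p = 0.356) in the same edgeR fit. Ndrg1 passed in 5 of 20 fits that left out 1 library each (edgeR adjusted p from 0.0276 to 0.107 over the 20), namely those without control amphetamine 1, control saline 4, overactive amphetamine 1, overactive amphetamine 5 or overactive saline 2, and also with DESeq2. Without the 4 libraries high in thalamic markers it was log2 0.16 (edgeR adjusted p = 0.328). Amphetamine moved Ndrg1 by log2 0.03 in each line (SE 0.10), and the difference between those responses was log2 0.00 (SE 0.15, 95% interval -0.31 to 0.31). Ndrg1 shares its span in the table with Gm2895 on the opposite strand, which has its own row with 1 to 13 counts, and the strandedness of the libraries is not given in the sources used here.

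Markers of oligodendrocytes, the myelinating cells of the brain, moved with Ndrg1. Over the 20 libraries Ndrg1 correlated with the mean log2(CPM + 1) of the list with Pearson r = 0.864 (permutation p = 1e-05, the smallest possible here, adjusted p = 8e-05 over 24 relations) and Spearman rho = 0.814 (permutation adjusted p = 0.0004). The value of r was 0.805 without the 2 libraries farthest from the median of the markers, 0.882 within the control line and 0.786 within the overactive line. With group means taken out it was 0.836. The permutations ran over all 20 libraries without regard to group, so differences between the groups enter these p-values. The summed level of the 15 oligodendrocyte markers was 2821 to 4745 CPM in the control line and 3779 to 5202 CPM in the overactive line, with Mbp at 0 throughout. Of the 14 tested, 2 were higher in the overactive line, Mobp (log2 0.32, SE 0.08, edgeR adjusted p = 0.0218) and Gjb1 (log2 0.49, SE 0.11, edgeR adjusted p = 0.0107), which encode a myelin protein and the gap junction protein connexin 32, and the median was 0.20 against 0.00 for all genes, of which 3.71% were higher. Ndrg1 also followed the thalamic markers (r = 0.591, permutation adjusted p = 0.0293; rho = 0.493, adjusted p = 0.0888). It ran against the pan-neuronal markers (r = -0.560, permutation adjusted p = 0.0429; rho = -0.544, adjusted p = 0.0611) and the cortical markers (r = -0.521, permutation adjusted p = 0.0495; rho = -0.540, adjusted p = 0.0611). Without the 2 farthest libraries r was 0.509 for thalamic, -0.572 for pan-neuronal and -0.634 for cortical markers. In the same order it was 0.329, -0.674 and -0.504 within the control line and 0.536, -0.347 and -0.248 within the overactive line. With group means taken out it was 0.451, -0.643 and -0.506. The part of these markers in the Ndrg1 difference was not tested, and in bulk tissue fewer cells of a type and less RNA per cell cannot be told apart.

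Ndrg2, the astrocyte member, differed little between any of the groups. Its level in saline was 680, 771, 818, 757 and 803 CPM in control libraries 1 to 5 and 831, 754, 839, 837 and 757 CPM in overactive libraries 1 to 5. Under amphetamine it was 721, 759, 768, 703 and 850.1 CPM in the control line and 671, 873, 764, 785 and 739 CPM in the overactive line. All 4 groups overlap, and the lowest and the highest library both belong to the overactive amphetamine group.

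The line difference of Ndrg2 over both treatments was log2 0.04 (SE 0.05, 95% interval -0.06 to 0.14, edgeR adjusted p = 0.634). Amphetamine changed it by log2 -0.01 in the control line and -0.07 in the overactive line (SE 0.07 each, edgeR adjusted p = 0.992 and 0.884), and over both lines by -0.04 (95% interval -0.14 to 0.06, edgeR adjusted p = 0.817). Without the 4 libraries high in thalamic markers the line difference was log2 -0.01 (edgeR adjusted p = 0.936). Ndrg2 followed the astrocyte markers across libraries with r = 0.680 (permutation adjusted p = 0.00504) and rho = 0.752 (permutation adjusted p = 0.00126), and r was 0.619 without the 2 farthest libraries, 0.498 within the control line and 0.774 within the overactive line. It also followed the thalamic markers (r = 0.525, permutation adjusted p = 0.0495, and rho = 0.438, permutation adjusted p = 0.120). It ran against the cortical markers (r = -0.523, permutation adjusted p = 0.0495, and rho = -0.447, permutation adjusted p = 0.118). The thalamic r was 0.325 without the 2 farthest libraries, 0.169 within the control line and 0.663 within the overactive line. The cortical r was -0.566, -0.318 and -0.605 in the same order. With group means taken out r was 0.643 for astrocyte, 0.518 for thalamic and -0.462 for cortical markers. The part of these markers in the Ndrg2 values was not tested. Of 13 astrocyte markers tested, 3 were higher in the overactive line (Gja1, Fgfr3 and Aldh1l1) and 1 was lower, S100b, at log2 -0.78 (SE 0.11, edgeR adjusted p = 0.000296), beside 3.71% of all genes higher and 3.31% lower. The summed astrocyte markers were 2233 to 2422 CPM in the control and 2214 to 2748 CPM in the overactive line, with Slc1a2 at 0 throughout.

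Ndrg3 had the largest response to amphetamine of the 3 family members tested, in the overactive line, and it did not pass over the whole table. In that line it stood at 338, 305, 296, 327 and 312 CPM in saline libraries 1 to 5 and at 421, 337, 336, 418 and 352 CPM in amphetamine libraries 1 to 5. In the control line it stood at 385, 337, 329, 334 and 369 CPM in saline and 346, 393, 355, 384 and 342 CPM under amphetamine. In the overactive line the groups meet at 336 to 338 CPM, where saline library 1 lies just above amphetamine libraries 2 and 3, and amphetamine libraries 1 and 4 stand highest of all 20.

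The overactive line response of Ndrg3 was log2 0.24 (SE 0.07, 95% interval 0.09 to 0.39, edgeR adjusted p = 0.372). In the control line it was log2 0.05 (SE 0.07, edgeR adjusted p = 0.934), and the difference between the responses was log2 0.19 (SE 0.10, 95% interval -0.02 to 0.40, edgeR adjusted p above 0.99). Over both lines amphetamine was higher by log2 0.15 (SE 0.05, edgeR adjusted p = 0.273). In saline the overactive line was lower by log2 -0.15 (SE 0.07, edgeR adjusted p = 0.268), and under amphetamine the lines differed by log2 0.03 (edgeR adjusted p = 0.863). Without the 4 libraries high in thalamic markers the overactive line response was log2 0.39 (edgeR adjusted p = 0.0603), with 3 libraries left in each overactive group. In that fit the difference between the responses was log2 0.34 (edgeR adjusted p = 0.537) and the response over both lines log2 0.22 (edgeR adjusted p = 0.0599). The line difference under amphetamine in that fit was log2 0.13 (edgeR adjusted p = 0.690). The overactive amphetamine libraries left out, 2 and 3, were the lowest of their group in Ndrg3. Their mean log2(CPM + 1) of the cortical markers was 3.94 and 4.69, against 5.01 to 5.76 in those kept. The overactive saline libraries left out, 1 and 4, were the highest of theirs in Ndrg3. Their cortical values were 4.37 and 3.73, against 3.53 to 4.38 in those kept. The part of these differences in the change was not tested.

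**Figure D4:**
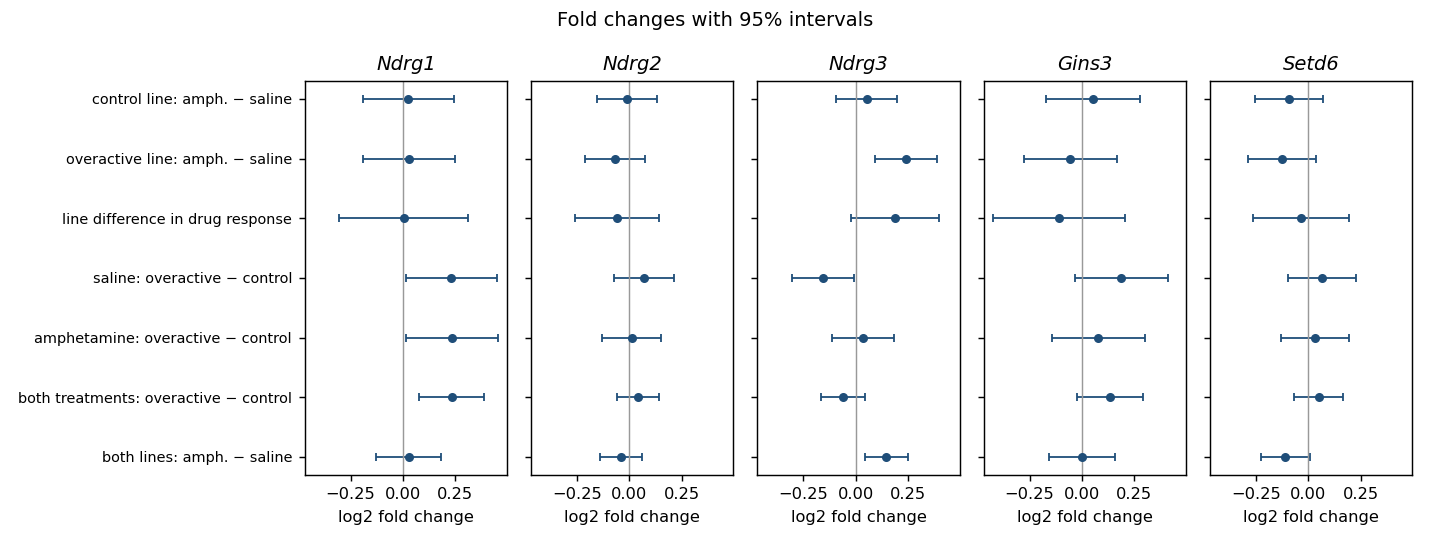
Each panel gives the log2 fold change of 1 gene with its 95% interval in the 7 comparisons, for Ndrg1, Ndrg2, Ndrg3 and the flanking genes Gins3 and Setd6. The intervals of Ndrg1 in the line comparisons and those of Ndrg3 for amphetamine in the overactive line, for amphetamine over both lines and for the lines in saline lie off 0, and 0 of the 35 pass over the whole table.

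Neuronal markers moved with Ndrg3. Its correlation with the mean level of 15 pan-neuronal markers was r = 0.930 (permutation adjusted p = 8e-05) and rho = 0.925 (permutation adjusted p = 0.00012), with r = 0.906 without the 2 farthest libraries, 0.891 within the control line and 0.953 within the overactive line. With 12 markers of cortical excitatory neurons it was r = 0.871 and rho = 0.923 (permutation adjusted p = 8e-05 and 0.00012), and r was 0.816 without the 2 farthest libraries. With group means taken out r was 0.896 for pan-neuronal and 0.825 for cortical markers. Overactive amphetamine libraries 1 and 4, the highest in Ndrg3, had cortical marker scores of 5.54 and 5.76 log2 units, against 3.94 to 5.01 in the other 3 of their group and 3.53 to 4.38 in overactive saline. The summed cortical markers were 330 to 585 CPM in overactive saline, 447 to 1496 CPM in overactive amphetamine, 580 to 1298 CPM in control saline and 995 to 1388 CPM in control amphetamine libraries. In the overactive line 0 of the 12 cortical markers passed for amphetamine, where 0 of 17206 genes (0%) passed, so this count says nothing particular about them. Of these markers 12 of 12 were positive and their median was log2 1.37. In the control line 12 of 12 were also positive, with a median of log2 0.43. Of the pan-neuronal markers 13 of 15 were positive in the overactive line, with a median of log2 0.11 (all genes 0.00). Of the striatal projection neuron markers 0 of 10 were positive there, with a median of log2 -0.16. The part of these markers in the Ndrg3 values was not tested.

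**Figure D5:**
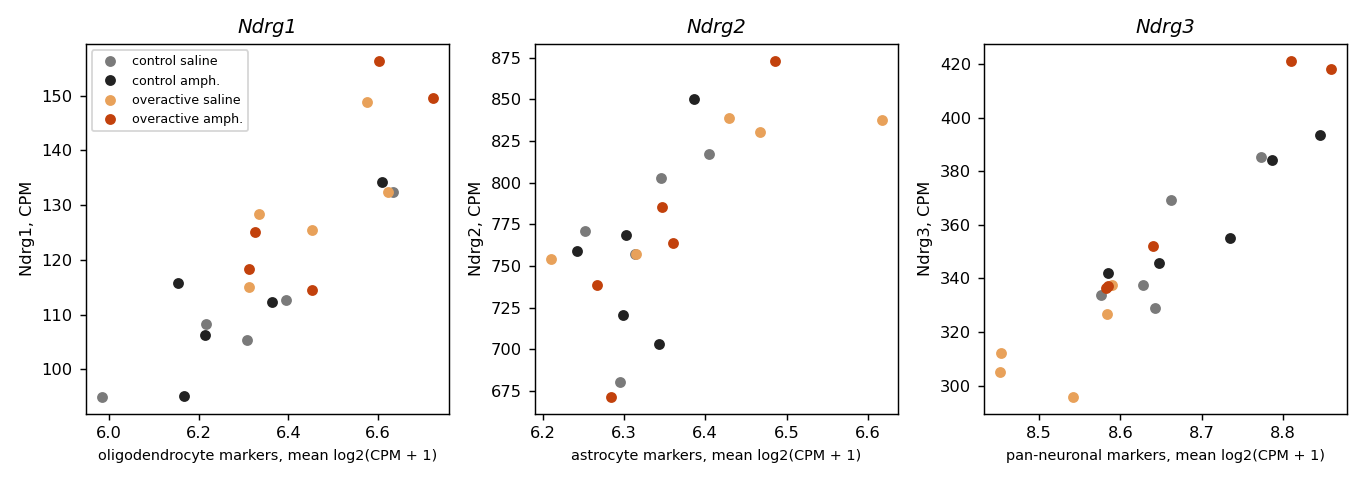
Each point is 1 of the 20 libraries, coloured by line and injection, with the mean log2(CPM + 1) of a marker list along the axis and the CPM of a family member up it. Ndrg1 rises with oligodendrocyte markers (r = 0.864), Ndrg2 with astrocyte markers (r = 0.680) and Ndrg3 with pan-neuronal markers (r = 0.930).

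The genes most like each member across the 20 libraries, by Pearson correlation of log2 CPM among 14957 genes, differed between the members and are given as a description. For Ndrg1 they were Pacs2 (0.917), Plekhb1 (0.906), Rhog (0.901), Ttyh2 (0.897) and Tnfaip6 (0.890). Pacs2 encodes a sorting protein of endoplasmic reticulum and mitochondria, Rhog a small GTPase and Ttyh2 a membrane protein of the Tweety family. For Ndrg3 the values were higher, with Dnm1, the neuronal dynamin of synaptic vesicle endocytosis (0.961), Olfm1 (0.958), the kinase Pak1 (0.956), the postsynaptic scaffold Dlgap1 (0.952) and Car10 (0.936). For Ndrg2 they were lower, with LOC100862108 (0.796), Gldn (0.791), the mitochondrial isocitrate dehydrogenase Idh2 (0.789), AI846148 (0.780) and the ribosomal protein gene Rpl10 (0.775). These libraries share their dissection and scaling, and no p is given.

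Of 16 genes listed as regulators of NDRG genes or proteins, or as their partners or relatives, 3 passed between the lines over both treatments, beside the 7.02% of all genes. The locus of Gsk3a in this list is shared with Erf. Egln1, the oxygen-sensing prolyl hydroxylase PHD2, was lower in the overactive line. It stood at 88.7 ± 7.18 CPM in control saline, 96.4 ± 9.03 in control amphetamine, 81.5 ± 3.62 in overactive saline and 77.1 ± 6.95 CPM in overactive amphetamine (SD, n = 5 each). The difference was log2 -0.22 (SE 0.05, edgeR adjusted p = 0.0125) over both treatments and log2 -0.32 (SE 0.07, edgeR adjusted p = 0.0466) under amphetamine. Gsk3b, a kinase that phosphorylates NDRG1, was lower by log2 -0.13 (SE 0.03, edgeR adjusted p = 0.0259) and Vhl, the ubiquitin ligase subunit that recognises hydroxylated HIF, was higher by log2 0.17 (SE 0.04, edgeR adjusted p = 0.0277). The median of the 16 was log2 -0.01 against 0.00 for all genes.

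Of the others in that list, Sgk1, the kinase that primes NDRG1 for GSK3, differed by log2 0.20 (SE 0.17, edgeR adjusted p = 0.476) and Hif1a by log2 0.01 (SE 0.05, edgeR adjusted p = 0.917). Myc stood at 3.85 ± 0.68 CPM in the control and 4.74 ± 0.44 CPM in the overactive line (SD, n = 10 each), a difference of log2 0.30 (SE 0.10, edgeR adjusted p = 0.0675). Mycn, the gene of N-Myc, differed by log2 0.05 (SE 0.10, edgeR adjusted p = 0.787). Among 16 hypoxia-responsive genes 1 passed, beside 7.02% of all genes, and their median was log2 -0.03. The gene that passed was Ddit4, an inhibitor of mTORC1 signalling, which was higher by log2 0.27 (SE 0.07, edgeR adjusted p = 0.0214). Without the 4 libraries high in thalamic markers the calls of Egln1 (log2 -0.19, edgeR adjusted p = 0.112), Gsk3b (-0.09, 0.201), Vhl (0.21, 0.0551) and Ddit4 (0.21, 0.179) were lost. For amphetamine against saline 0 of the 16 genes of the regulator list and 0 of the 16 hypoxia-responsive genes passed in either line. Since 0 of 17206 genes passed there (0%), these counts say nothing particular about either list.

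Markers of further cell types, listed for what the dissection could hold, were compared between the lines over both treatments, where 7.02% of all genes passed. Of 10 microglial markers 1 was higher (Itgam) and 2 were lower (Trem2 and the locus shared by Aif1 and Lst1), with a median of log2 -0.10. Of 10 endothelial, 10 striatal projection neuron and 8 thalamic markers 0 passed, with medians of log2 0.04, -0.13 and 0.79, and 8 of 8 thalamic markers were positive. Of 12 cortical markers 2 were lower (Slc30a3 and Rtn4rl2) with a median of log2 -0.74, and of 15 pan-neuronal markers 1 was lower (Rbfox3) with a median of log2 -0.04.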

How the data were processed

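RNA of the whole striatum of 20 mice was sequenced, per the labels. The authors deposited 1 table of expected counts per locus, not scaled between samples; 93.9% of values were whole within 0.01. The submitters' processing notes name the builds mm10 and GRCm38; the aligner and counting tool are not given in the sources used here. Table starts count from 0 (7677 of 21449 starts equal RefSeq starts after adding 1, 242 as deposited), so 1 was added.

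The 10576 loci without a symbol (0.650% of counts) were left out. Expected counts were rounded, filtered with filterByExpr (17206 genes left), scaled by TMM and tested two-sided with edgeR 4.0.16 quasi-likelihood in R 4.3.3, 1 mean per group over all 20 libraries, and a gene passed at an adjusted p (Benjamini-Hochberg, whole table) under 0.05. The model was tested on simulated data. Marker relations used Pearson and Spearman permutation tests over 20 libraries, shuffled without regard to the 4 groups. Exon lengths and coding sequences are GENCODE M21; promoters are RefSeq GRCm38.p6.

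The rule for named genes took the 4 members, the flanks and other loci within 500 kb, the 5 genes most like each of 3 members, loci with the same zeros, passing list members, and Sgk1, Myc, Mycn and Hif1a. Members and lists were chosen with earlier results of these data known. Replicates are separate libraries, and their numbers were not treated as pairs in the main fit. Alternatives were RLE scaling, no filter, 1 CPM in 5 libraries, DESeq2 1.42.0, symbol-less loci kept, a replicate block, and leaving out each library. Fits without loci at 0 in 1 line and without the 4 libraries highest in thalamic markers were added after seeing the data.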

Additional observations from a re-analysis of the deposited data

Results flagged for a closer look

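Values of 22 genes, the members, their flanks, the named regulators and the tested loci within 500 kb of Ndrg4, were screened for a single library far from the other 4 of its group. Of 86 groups screened 5 held one, and chance gives about 1 in 20. Setd6 was lowest in overactive amphetamine library 2 at 13.8 CPM, against 15.5 to 15.9 in the others. AA960436 was highest in overactive saline library 5 at 7.77 CPM (others 6.30 to 6.49). Zfp319 was highest in overactive saline library 3 at 36.5 CPM (others 31.1 to 32.6), and Slc38a7 was lowest in that library at 22.1 CPM (others 24.2 to 24.8). Ccdc113 was highest in control amphetamine library 5 at 3.74 CPM (others 2.15 to 2.46). None of the 5 is a value of Ndrg1, Ndrg2, Ndrg3 or Ndrg4.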

How the results depend on the processing

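Overactive libraries held 0 Ndrg4 counts and control libraries at least 74209, so a limit of fewer than 10 counts could not change the zeros. The control means of Ndrg4 were 2169 (saline) and 2202 CPM (amphetamine) by raw library totals. Ndrg1 to Ndrg3 past the test between the lines over both treatments were 0 in the main fit, 1 with DESeq2 and 0 to 1 when 1 library was left out, in each case Ndrg1. All-gene counts between the lines over both treatments were 2095 with DESeq2 and 770 to 1414 without 1 library, and 323 without the 4 libraries highest in thalamic markers. In saline they were 764 with DESeq2, 288 with symbol-less loci kept, 95 without the 4 libraries and 67 to 240 without 1 library. Under amphetamine they were 322, 135, 17 and 23 to 88, and 51 with the replicate block. For amphetamine in the overactive line DESeq2 called 40 genes and the fit without the 4 libraries 31; over both lines they called 161 and 80, and leaving out 1 library 0 to 4. The counts fell by more than 1.5 times over both treatments without control saline 5 (770), overactive amphetamine 2 (770) or overactive saline 4 (783), in saline without control saline 1, 2, 3 or 5 or overactive saline 3 or 4 (67 to 124), and under amphetamine without control amphetamine 3, 4 or 5 or overactive amphetamine 2 (23 to 43); the count of 4 over both lines came without control saline 1 or overactive amphetamine 2.

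Directions that changed belonged to small differences that passed in no alternative. Without the 4 libraries Ndrg1 stood at log2 -0.123 for amphetamine in the overactive line, -0.0475 over both lines and -0.151 for the difference between responses, Ndrg2 at -0.0531 between lines under amphetamine and -0.0126 over both treatments, and Hif1a at -0.0379. Gins3 over both lines was 0.00042 with RLE, 0.0015 with symbol-less loci kept and 0.0017 with DESeq2. Leaving out 1 library gave ranges across 0 for amphetamine against saline in Gins3 (both lines -0.029 to 0.0298, overactive line -0.112 to 0.0064), Ndrg1 (both lines -0.0076 to 0.0633, control -0.0447 to 0.0971, overactive -0.0384 to 0.0817, difference -0.0676 to 0.0742), Ndrg2 (control -0.0536 to 0.0158) and Setd6 (difference -0.0951 to 0.0062). It did so too between the lines for Ndrg2 and Ndrg3 under amphetamine (-0.0387 to 0.0557 and -0.0127 to 0.0700) and Hif1a over both treatments (-0.0075 to 0.0400). Gsk3b lost its call in 4 of the 20 fits without 1 library and Myc passed in 1 of them and with DESeq2. The cause was not tested.

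The replicate numbers gave no clear pairing of libraries: 30 same-numbered pairs correlated at -0.23 to 0.25, 10 of them over 0.1. Their median was 0.035, against -0.008 for pairs with different numbers, and 6 of 20 libraries correlated best with their own number. These values do not show that a pairing is absent. With the replicate block Ndrg1 to Ndrg3 passing stayed at 0, and the all-gene count between the lines under amphetamine was 51 against 78 in the main fit. The p-values of the group comparisons set a mean difference against the spread between mice within the groups. They hold for these 2 lines, and no spread between lines of a kind was estimated.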
